A study of Mus musculus with 3 samples.

Results

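Fcrls-positive macrophages were described in CD45-sorted immune cells of the mouse heart, profiled by droplet single-cell RNA sequencing. They were picked on their own counts: at least 5 summed molecules (UMIs) of the complement genes C1qa, C1qb and C1qc, at least 1 UMI of Fcrls, and low or no counts of genes that mark other leukocytes or other macrophage states. The excluded states were those with Arg1, Gpnmb, interferon genes, Lyve1 or Timd4, cell-cycle genes or high MHC class II. The rule took 1626 of 33159 cell barcodes, 699 in the Sham library, 610 in MI and 317 in MI-E. All mice were C57BL/6J, 8 to 9 weeks old, and each of the 3 groups gave 1 library. The abbreviation MI-E is not spelled out in the labels. The number of pooled hearts, the sex and the time after surgery are not given in the sources used here. MI denotes myocardial infarction, and the surgery text, a ligation of the left anterior descending coronary artery, is attached to all 3 libraries alike, Sham included. Differences between libraries therefore have no replicate check, and the intervals given are 95% intervals of counting error only.

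Fcrls encodes a scavenger-type member of the Fc receptor-like family and is best known in the mouse as a marker of microglia, the macrophages of the brain. Heart macrophages come from long-lived resident cells, which carry proteins such as LYVE1, TIMD4 and FOLR2, and from blood monocytes, which enter injured muscle with high Ly6c2 and Ccr2 and lose the first of these as they mature. Complement C1q, made by most tissue macrophages, separates both from neutrophils and lymphocytes.

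The cells expressed general macrophage genes in every library. Csf1r, the receptor for the growth factor that macrophages depend on, stood at 664 CPM (UMIs summed over the cells, as a rate per total) in Sham against 309 in MI and 373 in MI-E. The macrophage surface gene Adgre1 stood at 264, 284 and 344 CPM. The proposed description as recruited cells fitted the 3 libraries unequally. Ccr2, the chemokine receptor that brings monocytes into tissue, was near the floor in Sham, at 6.71 CPM, and stood at 159 CPM (150 to 170) in MI and 205 CPM (190 to 222) in MI-E. A Ccr2 UMI was present in 1.29%, 59.0% and 62.5% of the selected cells. After thinning every cell to 2000 UMIs these shares were 0.859%, 27.2% and 29.1%, against 10.7% of MI lymphocytes and 6.45% of MI neutrophils, and 12.4% and 2.81% in MI-E. Median depth before thinning was 9486.5 UMIs in the MI cells against 3359.5 and 2119 in those lymphocytes and neutrophils, and 9736 in the MI-E cells against 3017.5 and 2347. The Sham cells, which were the largest group, thus lacked the defining gene of recruited cells, and all cells are called here by the gene that selected them.

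The 3 libraries differed in depth. The selected Sham, MI and MI-E cells had medians of 4484, 9486.5 and 9736 UMIs and summed to 3130260, 6215806 and 3213897 UMIs. The cells that met every criterion except Fcrls, called Fcrls-zero cells below, numbered 546, 490 and 582 with medians of 1218, 7838 and 8404 UMIs. In Sham, a cell without Fcrls was thus often a shallow cell. No selected cell shared its barcode with a selected cell of another library, although 35, 45 and 26 barcodes were shared between the pairs of libraries (Sham with MI, Sham with MI-E, MI with MI-E). The doublet caller Scrublet marked 6, 29 and 5 of the selected cells in Sham, MI and MI-E, with a threshold from the expected rate in MI and its automatic one in the others, so that these numbers are not comparable.

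The cells made up 6.29% of the Sham cells that passed the filters on gene number and mitochondrial UMIs (699 of 11105, 5.85 to 6.76), 6.91% of MI cells (610 of 8831, 6.39 to 7.46) and 2.58% of those in MI-E (317 of 12279, 2.31 to 2.88). The MI-E share was 2.68-fold lower than the MI share (2.33 to 3.07). The denominator decided most of this size: among all cells with at least 5 C1q UMIs the shares were 13.2%, 10.4% and 7.43%, and MI-E was 1.39-fold below MI (1.22 to 1.60). With every cell thinned to 3000 UMIs before the rule was applied, which also lets more cells pass the upper limits on Arg1 and Gpnmb, the shares were 12.9%, 12.5% and 5.50%. MI over Sham gave 1.10 for all filtered cells (0.983 to 1.23) and turned to 0.785 among C1q-expressing cells (0.703 to 0.877), so that no order of these libraries held under both denominators.

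Most cells lay well inside the C1q limit, with median C1q sums of 66, 83.5 and 79 UMIs (Sham, MI, MI-E). Fcrls itself was sparse. Its median was 2 UMIs for Sham cells and 3 for both others, with highest values of 13, 32 and 32. Cells just inside the limit, with exactly 1 UMI, were 37.1% in the Sham, 24.6% in the MI and 30.9% in the MI-E library. Just outside the other limits, 552 MI cells failed on Arg1 alone, 341 on Gpnmb alone and 201 on the cell-cycle genes Mki67 and Top2a alone, and in MI-E these numbers were 349, 229 and 35. In Sham the criteria that alone removed most cells were MHC class II (767) and Lyve1 with Timd4 (757).

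Fcrls was not particular to the selected cells. Here the cells counted are narrower than those with at least 5 C1q UMIs above: they also met the limits on S100a8, S100a9, Cd79a and the Cd3 genes. Among these 5658 cells of MI, 60.4% had a Fcrls UMI, and after thinning to 2000 UMIs 29.2% did (28.0 to 30.4). In MI-E the thinned share was 20.4% (19.1 to 21.7) and in Sham 44.1% (42.4 to 45.8), against 45.8% and 59.7% before thinning. Lymphocytes, which should lack the gene, showed 0.893% in MI, 2.16% in MI-E and 0.897% in Sham, and neutrophils 6.45%, 1.93% and 0.680%. Within MI, cells with at least 2 Arg1 UMIs had 27.2%, cells with at least 2 Gpnmb UMIs 27.9%, and the cells that met every other criterion of the rule 31.2% (28.4 to 34.0). In MI-E the same classes had 20.8% (19.0 to 22.8), 19.7% (17.7 to 21.8) and 18.1% (15.5 to 20.8). The last was thus the highest of the 3 in MI and the lowest in MI-E, with overlapping intervals within each library. In Sham that last class had 53.3%. Cells with Lyve1 or Timd4 reached 44.6% in MI (38.3 to 51.0) and 45.5% in MI-E (35.6 to 55.8), and cycling cells 38.6% and 32.3%. The lowest shares were those of cells high in MHC class II, at 9.56% in MI and 7.34% in MI-E, but not in Sham, where they reached 38.6%. Classes overlap, since a cell can meet several of these limits.

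**Figure D1:**
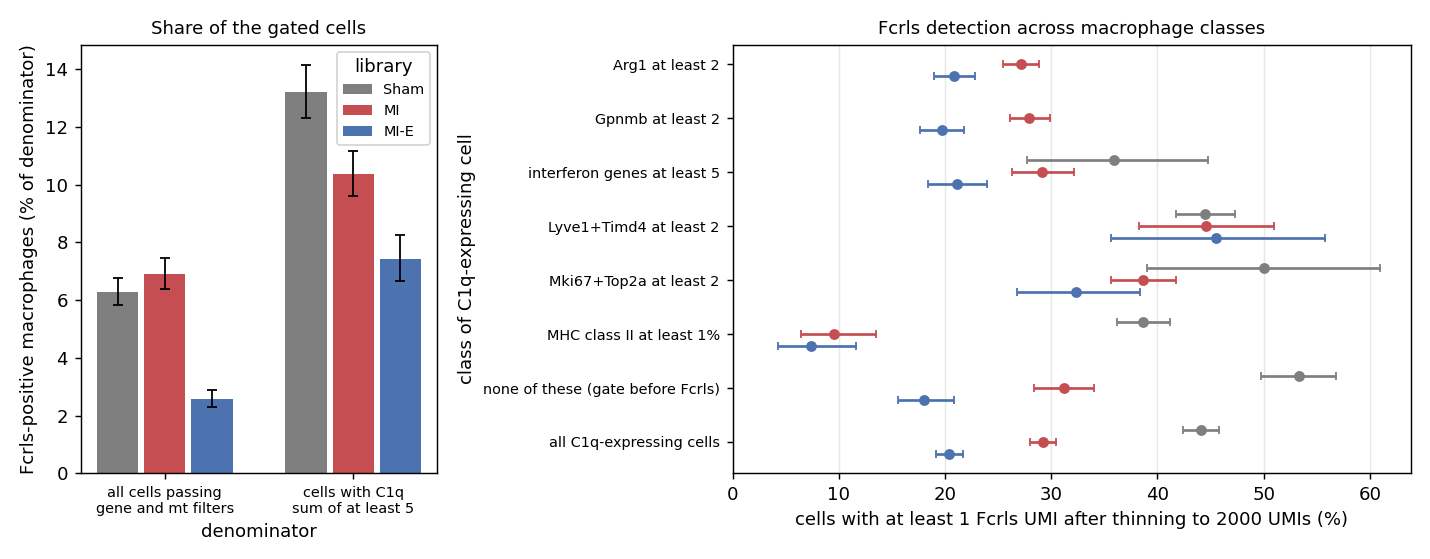
Left, share of Fcrls-positive macrophages in each library over both denominators, bars with exact 95% binomial intervals. Right, share of cells with a Fcrls UMI after thinning to 2000 UMIs in classes of C1q-expressing cells (points with 95% intervals, classes under 50 cells left out); MI-E lies below MI over all cells that passed the C1q and leukocyte limits, at 20.4% and 29.2%, and MHC class II-high cells are lowest in MI and MI-E.

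Of the other proposed marker genes, Ms4a7, a membrane-spanning gene of tissue macrophages, was seen in most cells, Cd72 and Cx3cr1 in part of them, and Tmem119 in few. Fcrls lies on chromosome 3 from 87250758 to 87263738 on the minus strand of GRCm38. Its level, fixed in part by the rule, was 612, 465 and 449 CPM (Sham, MI, MI-E). Ms4a7 stood at 594, 1008 and 1123 CPM. Cd72, an inhibitory receptor that B cells also express, stood at 139, 207 and 236 CPM. Cx3cr1, the fractalkine receptor, stood at 140, 117 and 128 CPM. Tmem119, a microglial membrane gene, stood at 7.67, 31.2 and 24.6 CPM and was seen in 3.43%, 19.7% and 16.1% of cells (1.03%, 4.62% and 3.27% when thinned). In neutrophils the thinned Tmem119 share was 0 of 147 cells in Sham, 0 of 93 in MI and 0.0878% in MI-E. The few MI neutrophils allow a share up to 3.23%, and the MI share of 4.62% lay little above that limit. The MI-E share of 3.27% lay above the neutrophil share of its library. All 4 were seen together in 1.57%, 9.51% and 7.26% of the selected cells, and none of the 4 in 15.5%, 1.97% and 3.47%, at the depths given above.

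Between MI and MI-E these 4 genes differed little. None passed 1.5-fold, and the ratios of MI-E to MI were 1.11 for Ms4a7 (1.07 to 1.16), 1.14 for Cd72 (1.04 to 1.25), 1.09 for Cx3cr1 (0.967 to 1.24) and 0.788 for Tmem119 (0.598 to 1.03). Other genes of microglia were sparse or absent after infarction. Sall1, a defining transcription factor gene of microglia, had 0 UMIs in all 3 libraries, which allows up to 0.958, 0.483 and 0.933 CPM. Siglech had 0 UMIs in MI and MI-E and 10.5 CPM in Sham. The receptor gene Gpr34 stood at 110, 5.95 and 9.02 CPM, and the purinergic receptor P2ry12 at 40.3, 17.1 and 18.4 CPM.

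**Figure D2:**
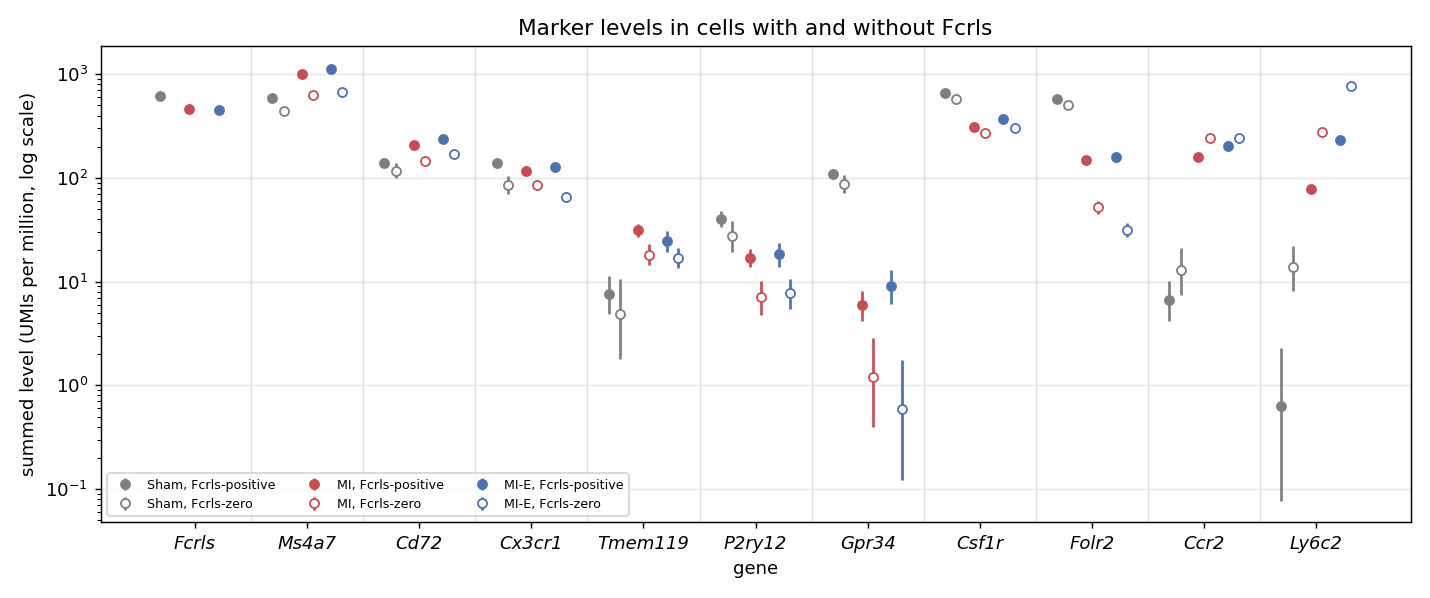
Summed level of 11 genes on a log axis in Fcrls-positive cells (filled) and Fcrls-zero cells (open) of each library, with 95% Poisson intervals; levels of 0 are not drawn. Ccr2 and Ly6c2 separate Sham from MI and MI-E, and Folr2 is higher in Fcrls-positive than in Fcrls-zero cells of MI and MI-E.

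Within MI and within MI-E, cells with Fcrls carried more transcripts of resident-type macrophages and fewer of blood monocytes than Fcrls-zero cells. The mannose receptor gene Mrc1 stood at 417 CPM against 121 in MI (3.45-fold, 3.13 to 3.80) and at 408 against 88.9 in MI-E (4.59-fold, 4.12 to 5.12). The folate receptor gene Folr2 stood at 150 against 52.1 CPM and at 159 against 31.5 CPM. Pf4, a chemokine gene of platelets and macrophages, stood at 3930.3 against 1683 CPM in MI and at 3437 against 1032 CPM in MI-E. The other 7 of the 10 genes highest in both libraries were Fcgrt, which encodes the neonatal Fc receptor, Ctla2b, Cbr2, the bridging ligand gene Gas6, the selenium carrier gene Selenop, Wwp1 and Hpgds, a prostaglandin synthase gene, at 2.15-fold to 3.16-fold in MI and 2.90-fold to 4.89-fold in MI-E.

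The genes lowest in cells with Fcrls were Hp, F10, Plac8, Ly6c2, Napsa, Vcan, AA467197, Ass1, Traf1 and Slpi, at 2.45-fold to 5.73-fold in MI and 2.41-fold to 3.87-fold in MI-E. Ly6c2, a surface protein gene of inflammatory monocytes, stood in MI at 78.8 CPM in cells with Fcrls and 279 CPM without it, and in MI-E at 234 against 775 CPM. Plac8, another monocyte gene, stood at 282 against 986 CPM and at 500.0 against 1789 CPM. Ccr2 differed less, with 159 against 241 CPM (MI) and 205 against 243 CPM (MI-E). Neutrophil markers moved with these genes, summing to 53.4 against 154 CPM in MI and 172 against 198 in MI-E. They include S100a8 and S100a9, which the rule keeps low in cells with and without Fcrls. Fibroblast markers moved the same way, at 19.6 against 78.4 and 162 against 509 CPM. The part of either was not tested.

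Counted over lists, 10 of 14 measured resident macrophage genes were at least 1.5-fold higher with Fcrls in MI and 10 of 14 in MI-E, with median log2 ratios of 0.82 and 1.41. Of all 8090 genes measured in MI, 465 were higher (5.75%) and 356 lower (4.4%), with a median of 0.03. Of 8161 in MI-E, 880 were higher (10.8%) and 377 lower (4.62%), with a median of 0.11, and median-of-ratios scaling turned these MI-E numbers to 546 and 541. Classical monocyte genes were lower in 11 of 14 (MI) and 11 of 15 (MI-E), with medians of -1.36 and -1.22. Proliferation genes were higher in 12 of 17 in MI and 7 of 16 in MI-E, all within cells that held at most 1 UMI of Mki67 and Top2a together. These counts are descriptions of cells chosen by their own counts, since a deeper cell more readily shows a Fcrls UMI. In Sham, where Fcrls-zero cells were shallow and summed to 18926 CPM of red blood cell genes against 3439 CPM in cells with Fcrls, 563 genes were higher (6.61%) and 685 lower (8.04%), and Mrc1 was 1.54-fold higher. The part of depth in these differences was not tested beyond the window of 5000 to 15000 UMIs per cell, in which 599 genes were higher in MI and 1077 in MI-E.

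Promoters of the genes that were higher with Fcrls were read for the letters AGGAAGT, which on the opposite strand read ACTTCCT, the core that ETS-family factors such as PU.1 bind. It was chosen after the sequences had been seen. Over the 250 bases before the RefSeq start (GRCm38.p6), it occurs in 2377 of 27025 genes (8.80%), in Fcrls and Cd72 but not Cx3cr1 and Ms4a7 among the marker genes with an entry, in 5 of 9 of the genes higher with Fcrls, and in 1 of 8 of the genes lower with it (Ly6c2). The stretches of 27 bases around it are shown for these 7 genes, read on each gene's strand, with the match in capitals.
Fcrls, chr3:87263583-87263609, minus strand: caactttgccACTTCCTttttttccta
Cd72, chr4:43454659-43454685, minus strand: ccaaagacctACTTCCTcttttatgac
Mrc1, chr2:14229193-14229219, plus strand: acttctccccACTTCCTgcgttttctc
Folr2, chr7:101857311-101857337, minus strand: ctaaatcaccAGGAAGTgaaactcttc
Pf4, chr5:90772415-90772441, plus strand: tctgcagagcACTTCCTcatcctgtat
Selenop, chr15:3270576-3270602, plus strand: ttagtatagaACTTCCTcttcataaag
Hpgds, chr6:65144762-65144788, minus strand: ttttaggtggAGGAAGTggcctctggc
The stretch of Fcrls lies inside the gene as GENCODE draws it, whose start is farther upstream than that of RefSeq. The match begins 75 bases before the start of Fcrls, 49 before that of Cd72 and 10 before that of Pf4. These are matches of letters and say nothing of binding in these cells.

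The differences were largely graded with the number of Fcrls UMIs. Mrc1 and Ly6c2 had been named for their difference between cells with and without Fcrls, so that their step from 0 follows from that choice. In MI, Ly6c2 stood at 279, 158, 92.1 and 35.0 CPM in cells with 0, 1, 2 to 3 and at least 4 Fcrls UMIs. In MI-E the same groups stood at 775, 383, 360 and 89.6 CPM, with overlapping intervals for 1 and for 2 to 3 UMIs. Mrc1 ran the other way, at 121, 271, 375 and 507 CPM in MI and 88.9, 291, 377 and 488 CPM in MI-E. Among cells with Fcrls, Mrc1 lay at similar levels in both libraries at equal Fcrls counts, while Ly6c2 was higher in MI-E in each of the 4 groups. Trem2, a lipid-sensing receptor gene, stood at 432, 586, 688 and 816 CPM in MI and at 320, 522, 681 and 797 CPM in MI-E. Among cells with Fcrls, Ccr2 showed no such grading, at 165, 167 and 153 CPM in MI and 214, 237 and 185 CPM in MI-E, with overlapping intervals within each library. The groups held 490, 150, 177 and 283 cells in MI against 582, 98, 83 and 136 in MI-E, and their median depth ran from 7838 to 10258 UMIs in MI and from 8341.5 to 11238 in MI-E.

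**Figure D3:**
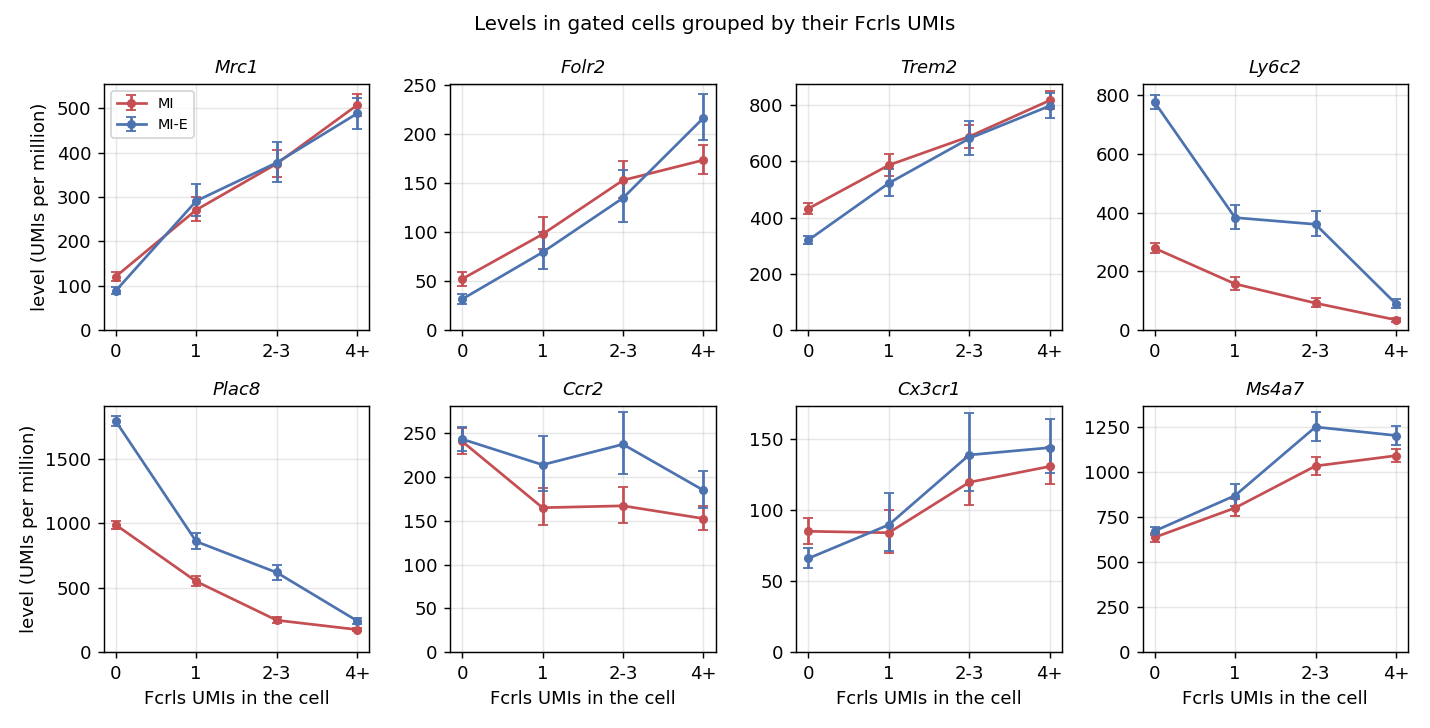
Level (CPM, with 95% Poisson intervals) of 8 genes in MI (red) and MI-E (blue) cells grouped by their Fcrls UMIs; group 0 is the Fcrls-zero cells. Mrc1, Folr2 and Trem2 are higher, and Ly6c2 and Plac8 lower, in groups with more Fcrls, and Ly6c2 and Plac8 lie higher in MI-E than in MI in each group.

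Cells with a Ccr2 UMI had more Ly6c2 and less Folr2 than the rest of the selected cells, the reverse of cells with more Fcrls. In MI, the 360 Fcrls-positive cells with Ccr2 had 111 CPM of Ly6c2 and 107 CPM of Folr2, and the 250 without had 29.6 and 217 CPM. In MI-E, 198 cells with Ccr2 had 310 and 122 CPM, and 119 without had 87.3 and 231 CPM. Ms4a7, Cd72 and Tmem119 differed little across this split in MI, at 1006 against 1012, 211 against 200 and 32.8 against 28.7 CPM. In MI-E, Ms4a7 was higher with Ccr2, at 1224 against 928 CPM. Cx3cr1 went opposite ways, at 125 against 103 CPM in MI and 118 against 146 CPM in MI-E, with overlapping intervals in each. Median depth with and without a Ccr2 UMI was 9797.5 and 9162.5 UMIs in MI, and 10167.5 and 8394 in MI-E.

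MI-E was then compared with MI within the Fcrls-positive cells. Of 8203 genes with a mean of at least 5 CPM, 633 were at least 1.5-fold higher in MI-E (7.72%) and 250 at least 1.5-fold lower (3.05%), and for 587 and 205 of these the counting interval of the ratio left out 1. Monocyte and interferon genes were among the higher ones, and the stress-hormone response gene Fkbp5 among the lower ones. The direction of the whole is tied to scaling: with median-of-ratios size factors in place of totals, which shift the median log2 ratio of all genes from 0.11 to -0.01, 356 genes were higher and 466 lower, so that the share of calls on the higher side went from 71.7% to 43.3%. The 356 were all among the 633, and the 250 all among the 466.

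Named genes reached 50 CPM and were detected in 5% of cells or more on the higher side, and the 4 with the highest ratios rested on few cells. Col3a1, a fibrillar collagen gene, stood at 90.9 against 2.90 CPM, but 2 of the 317 MI-E cells held 268 of its 292 UMIs. The same held for the proteoglycan gene Bgn (151 of 167 UMIs in 2 cells), the protease inhibitor gene Timp1 (854 of 1006) and the matrix gene Sparc (598 of 639). Fibroblast markers summed to 162 CPM for MI-E and 19.6 for MI. Without cells that held at least 5 UMIs of a fibroblast, endothelial or cardiomyocyte list or at least 20 of red blood cell genes (15 MI cells and 6 MI-E cells, a limit set after the data had been seen), the log2 ratio was 1.34 in place of 4.56 for Col3a1, 1.63 in place of 3.76 for Bgn, 0.91 in place of 3.52 for Timp1 and 0.82 in place of 2.00 for Sparc. On the lower side, Fabp4, a fatty acid binding protein gene that endothelial cells also express, went from a log2 ratio of -1.99 to -0.05. Of its 1674 UMIs in MI, 59.9% lay in 5 cells, and endothelial markers summed to 33.1 against 17.7 CPM. Haemoglobin genes, not named by the rule, were of the same kind: 1 MI cell held 5292 of 5333 UMIs of Hbb-bs. Without these cells 564 genes were higher (6.95%) and 259 lower (3.19%) of 8110, and 500 and 213 of the original calls remained.

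Among the remaining named genes, Saa3 also leaned on few cells, with 47.5% of its MI-E UMIs and 39.6% of its MI UMIs in 5 cells each. Ly6c2 stood at 234 CPM (MI-E) against 78.8 CPM (MI; 2.97-fold, 2.65 to 3.33) and was seen in 43.2% and 22.1% of cells (21.6% and 11.1% when thinned). Neutrophils showed thinned shares of 21.2% and 8.60% and lymphocytes, some of which express the gene, 18.1% and 22.3%, at the lower depths given above. Its share in the selected cells thus did not stand clear of these cells, and levels in neutrophils were 205 and 178 CPM. Chil3, a chitinase-like gene of monocytes, stood at 758 and 307 CPM (2.47-fold, 2.32 to 2.62). Ms4a4c stood at 248 and 118 CPM, the acute-phase gene Saa3 at 93.0 and 38.6 CPM and the complement gene C3 at 50.4 and 21.6 CPM. Neutrophils numbered 1780 of the 12279 filtered cells in MI-E and 177 of 8831 in MI. The part of their transcripts in the Chil3 and Saa3 values was not tested. Among interferon-response genes, Ifi205 stood at 70.3 and 22.8 CPM (3.08-fold, 2.48 to 3.82), Irf7, a regulator of the response, at 379 and 156 CPM (2.44-fold, 2.24 to 2.66), Ly6a at 484 and 193 CPM, Ifi47 at 51.3 and 19.5 CPM, Oas3 at 54.8 and 23.2 CPM and Zbp1, a sensor of nucleic acids, at 202 and 92.8 CPM.

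Fkbp5, a co-chaperone gene induced by glucocorticoids, had the lowest ratio of the named genes. Its level was 15.9 CPM against 66.0 in MI (4.16-fold lower, 3.10 to 5.68), and 5.75 CPM in Sham. Rgcc, a cell-cycle regulator gene, stood at 107 and 219 CPM (2.05-fold lower, 1.82 to 2.31). Stmn1, a microtubule regulator gene of dividing cells, stood at 57.6 and 112 CPM, and Tmsb10, an actin-binding gene, at 875 and 1490.2 CPM. The remaining named genes, Churc1, Cmc1, Mgst3, Erh, Naa20, Tomm7, Polr2l, Guk1, Acot13 and Dennd5b, were 1.67-fold to 1.84-fold lower. In MI-E, 64.8% of the Dennd5b UMIs lay in 5 cells.

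**Figure D4:**
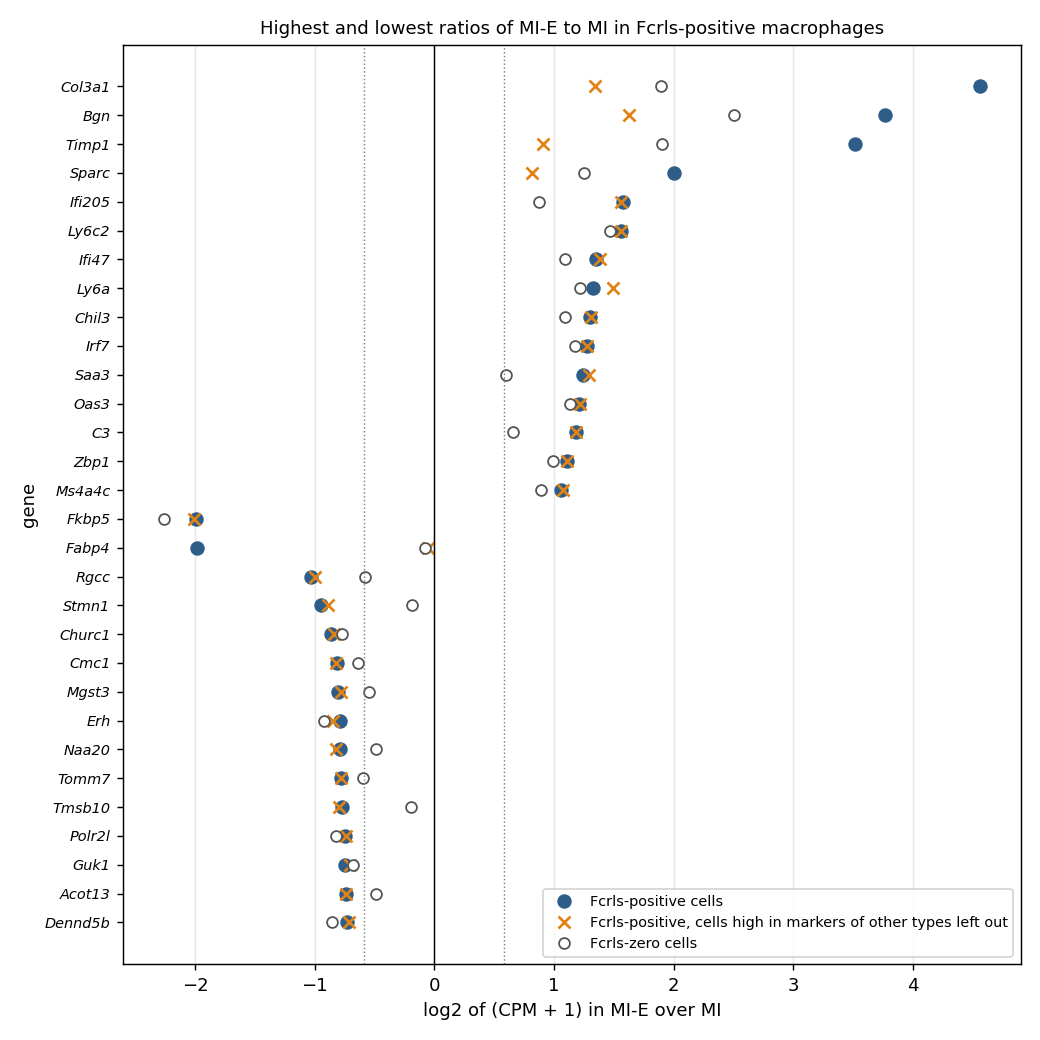
Log2 ratio of MI-E to MI for the 15 genes with the highest and the 15 with the lowest ratio in Fcrls-positive cells (filled), the same without cells high in markers of other types (crosses) and in Fcrls-zero cells (open); dotted lines mark 1.5-fold. Col3a1, Bgn, Timp1, Sparc and Fabp4 move towards 0 when those cells are left out, while Fkbp5 is at -1.99 in the filled set.

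Of the gene lists, the classical monocyte list stood highest in MI-E. Of its 14 measured members 10 were at least 1.5-fold higher and 0 lower, with a median log2 ratio of 0.82 against 0.11 for all genes. Plac8 stood at 500.0 and 282 CPM, the coagulation factor gene F10 at 39.5 and 18.8 CPM and the matrix glycoprotein gene Thbs1 at 1137 and 740 CPM, while Fn1, which encodes fibronectin, stood at 316 and 319 CPM. All 5 neutrophil markers, among them S100a8 and S100a9 that the rule limits, were seen in MI and MI-E. These markers, which can be shared by young monocytes, summed to 172 CPM for MI-E, 53.4 for MI and 34.5 for Sham. Median mitochondrial UMIs were 2.18%, 1.33% and 3.01% in the same order. The part of either in this list was not tested.

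The type I interferon list had 12 of 26 members higher and 0 lower, with a median of 0.48. Its 5 genes used by the rule are left out of this count, and the rule had already removed cells with 5 or more of their UMIs. Ifi27l2a had the lowest log2 ratio of the list, -0.13. Ifi27, an interferon-induced gene outside the list, was lower in MI-E, at 46.3 against 95.7 CPM without the cells high in markers of other types (2.07-fold, 1.72 to 2.50). Among Fc receptors and their signalling, 5 of 12 were higher, against 7.72% of all genes, but the median of 0.15 lay near the 0.11 of all genes. The 5 included the high-affinity receptor gene Fcgr1 at 457 and 281 CPM (1.62-fold, 1.51 to 1.74) and Fcgr4 at 186 and 123 CPM. Complement genes were higher in 3 of 11, a small list read against the same 7.72%, Cfb at 110 and 52.3 CPM, C3 and C4b (55.4 and 35.7 CPM).

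The matrix, repair and growth factor list had 8 of 30 higher and 1 lower, Mmp9, with a median of 0.23. Lox and Sparc are among the 8, and Lox had 45 UMIs in MI-E, 43 of them in 2 cells. Ecm1, an extracellular matrix gene, stood at 426 and 241 CPM and the membrane protease gene Mmp14 at 135 and 86.9 CPM. Inflammatory genes were higher in 3 of 28, near the 7.72% of all genes: Il1b, the interleukin-1 beta gene, at 1644 and 1021 CPM, its antagonist Il1rn at 493 and 273 CPM, and the chemokine Cxcl16 at 514 and 325 CPM. The single lower member, Cxcl9, had 107 of its 125 MI UMIs in 1 cell. The part of neutrophil transcripts in the Il1b and Il1rn values was not tested. Transcription factor genes were higher in 4 of 34 (Smad3, Runx3, Pparg and Irf8) and lower in 1 (Id3), near the 7.72% and 3.05% of all genes.

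Proliferation genes were lower in 5 of 19 and higher in 1, against 3.05% and 7.72% of all genes, with a median of -0.49. The rule had already removed cells above 1 UMI of Mki67 and Top2a together, 201 in MI and 35 in MI-E on this limit alone. The part of this limit in the list was not tested. Pclaf, a replication factor gene, stood at 6.85 and 16.7 CPM, Dut at 18.0 and 33.3 CPM and Cks1b at 14.0 and 24.3 CPM, while Ccnb2 stood higher at 9.96 and 5.15 CPM. Several other lists held few genes past 1.5-fold: 1 lower of 15 resident macrophage genes (Ltc4s, at 19.3 and 38.3 CPM), 0 of 20 chemokine receptor and migration genes, 1 of 24 oxidative phosphorylation genes (Ndufa1, lower) and 0 of 15 iron-handling genes. The efferocytosis receptors Axl and Mertk went in opposite directions, Axl at 74.7 and 40.2 CPM and Mertk at 26.4 and 42.6 CPM. Glucocorticoid targets did not follow Fkbp5 as a list: 2 of 16 were lower, Fkbp5 and Mt1, 1 was higher, Il1r2, and the median was 0.12.

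The Fcrls-zero cells gave a second view of the same libraries. In them 440 of 8027 genes were higher in MI-E (5.48%) and 332 lower (4.14%), and fibroblast markers summed to 509 against 78.4 CPM. Fkbp5 was 5.13-fold lower (11.1 against 56.9 CPM), Ly6c2 2.78-fold higher (775 against 279 CPM) and Irf7 2.27-fold higher (471 against 208 CPM). The classical monocyte list had 9 of 15 members higher with a median of 0.67, and the interferon list 11 of 26 with a median of 0.47. The lists of resident genes and Fc receptors read differently. Among Fcrls-zero cells 6 of 14 resident genes were lower in MI-E and 2 higher (median -0.46), against 1 of 15 lower and 0 higher among Fcrls-positive cells (median -0.03). Of 12 Fc receptor genes, 0 were higher among Fcrls-zero cells (median -0.11) and 5 among Fcrls-positive cells (median 0.15). Fcgr1 lay on either side of the 1.5-fold limit, with log2 ratios of 0.54 in Fcrls-zero and 0.70 in Fcrls-positive cells. The medians over all genes were 0.01 in Fcrls-zero and 0.11 in Fcrls-positive cells. Whether these list values differ between cells with and without Fcrls was not tested, since each library is a single sample.

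Against Sham, the selected cells of both MI and MI-E had higher levels of most monocyte and glycolysis genes and lower levels of most resident macrophage genes. Both comparisons share the Sham library. Of its selected cells, 24.3% had a Lyve1 UMI and 1.29% a Ccr2 UMI. The limit of at most 1 UMI of Lyve1 with Timd4 was applied at median depths of 4484 (Sham), 9486.5 (MI) and 9736 UMIs (MI-E). The part that a different kind of selected cell in Sham has in these differences was not tested. In MI 1936 of 8427 genes were higher (23%) and 1643 lower (19.5%), and in MI-E 2395 of 8505 were higher (28.2%) and 1516 lower (17.8%). The osteopontin gene Spp1 went from 48.2 CPM (Sham) to 2963 (MI) and 3619.9 (MI-E). Thbs1 stood at 11.5, 740 and 1137 CPM, and Fn1 at 2.88, 319 and 316 CPM. Classical monocyte genes were higher in 12 of 13 in MI (median 4.03) and in 13 of 13 in MI-E (median 4.74).

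Resident macrophage genes were lower in 15 of 17 in MI (median -2.10) and in 14 of 17 in MI-E (median -1.85). Folr2 stood at 573, 150 and 159 CPM in Sham, MI and MI-E, the haemoglobin scavenger gene Cd163 at 207, 27.7 and 32.4 CPM, and the chemokine gene Ccl24 at 387, 6.92 and 7.78 CPM. Mrc1 was lower by less, at 811, 417 and 408 CPM. Lipid-handling genes were higher in 12 of 22 and lower in 4 in MI, against 23% and 19.5% of all genes. In MI-E 14 were higher and 5 lower, against 28.2% and 17.8%, so that the lower counts lay near those of all genes. The lipid carrier gene Apoe was among the lower ones, at 32785, 12328 and 11084 CPM. Glycolysis and hypoxia genes were higher in 16 of 21 in MI and 15 of 21 in MI-E, among them the angiogenic factor gene Vegfa at 3.19, 91.2 and 103 CPM. Genes induced by tissue dissociation moved with these differences: 21 of 22 were lower in MI and 21 of 22 in MI-E, with the heat shock gene Hspa1a at 4271, 134 and 254 CPM, and red blood cell genes summed to 3439, 1571 and 17.1 CPM. Their part in the differences from Sham was not tested.

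**Figure D5:**
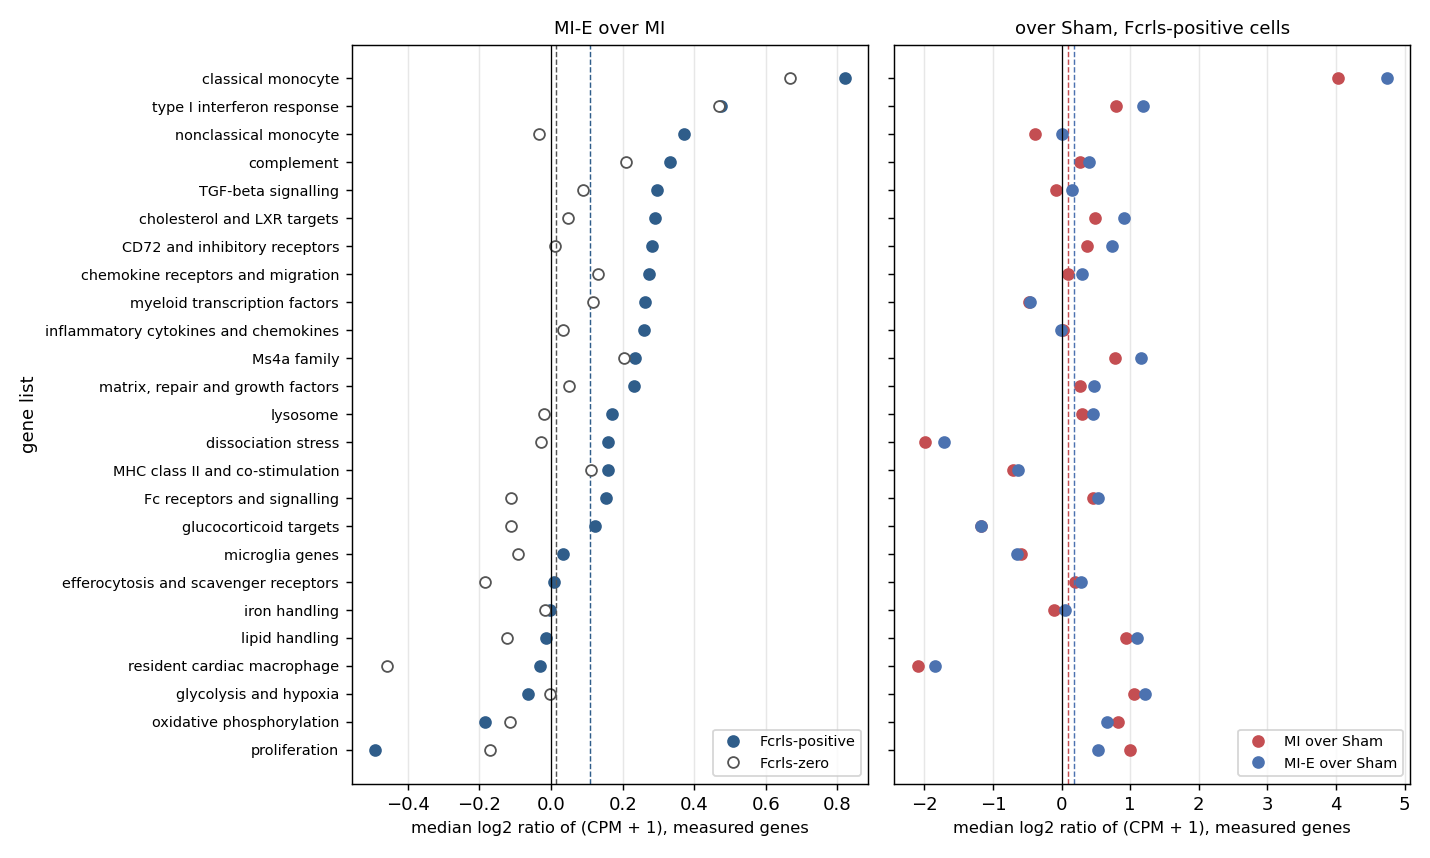
Median log2 ratio of each gene list, left for MI-E over MI in Fcrls-positive (filled) and Fcrls-zero cells (open), right for MI and MI-E over Sham in Fcrls-positive cells; dashed lines are the medians over all measured genes. The classical monocyte list is highest in both panels, at 0.82 on the left, and the proliferation list lowest on the left, at -0.49.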

How the data were processed

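Per the submitters' processing notes, reads were processed with Cell Ranger 5.0.1 and the build mm10. The deposited files hold raw UMI counts per gene and barcode, which the authors did not normalize. Barcodes needed 200 genes or more and no more than 10% of UMIs from mitochondrial genes. Counts were summed over the selected cells of each library and scaled to CPM, and genes with a mean of at least 5 CPM were compared as log2 of CPM + 1. A gene was counted as higher or lower at 1.5-fold or more, and the 24 genes used by the rule were not counted. Poisson, ratio and Clopper-Pearson intervals are exact, at 95%, and cover counting error only. No test was made, because each group has 1 library. A share of 0 is given with the limit of 3 counts.

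Doublets were left in and scored with Scrublet (scanpy 1.11.5, Python 3.11.15) as an alternative. Lymphocytes (at least 2 UMIs of Cd79a with Cd79b, or of the Cd3 genes) and neutrophils (at least 3% S100a8 and S100a9), both under 5 C1q UMIs, gave the background. Named genes are the 15 highest and 15 lowest ratios of MI-E to MI, and the 10 most different in both libraries between cells with and without Fcrls, among genes that reached 50 CPM and were detected in 5% of cells or more on the higher side, plus the highest and lowest of lists. Genes of the rule, mitochondrial, ribosomal, haemoglobin, immunoglobulin, T cell receptor and predicted genes and the markers of other cell types were not named by it. The members and lists were chosen with earlier results of these data known. Scripts were tested on simulated data. Promoter sequences are from RefSeq (GRCm38.p6), found for 4 of 5 marker genes and 9 of 10 and 8 of 10 named genes, and gene coordinates are from GENCODE (GRCm38). A few genes are not reported here.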

Additional observations from a re-analysis of the deposited data

How the results depend on the processing

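The share ratio of MI-E to MI, 0.374, stayed below 1 under each setting run: 0.441 after thinning to 3000 UMIs and 0.717 among C1q-expressing cells. Counts of genes past 1.5-fold depended on scaling and on low genes. Median-of-ratios factors gave 356 higher and 466 lower genes for MI-E against MI, and 546 higher with Fcrls in MI-E. Adding 10 CPM in place of 1 gave 200 and 70 for MI-E against MI, 141 and 163 with Fcrls in MI, and 270 and 198 in MI-E. With no filter on low genes these were 1536 and 881, 1236 and 915, and 2014 and 1189. Doublet removal, a window of 5000 to 15000 UMIs, equal weight per cell, and leaving out cells high in markers of other types (added after seeing the data) moved none of these counts by over 1.5 times. The genes behind the counts changed more. Of the 633 higher and 250 lower genes for MI-E against MI, 428 and 179 remained with equal weight per cell, and 454 and 188 in the window of 5000 to 15000 UMIs. The ratio of Sparc turned to -1.15 on the log2 scale in that window and to -1.97 among cells with at least 2 Fcrls UMIs; 93.6% of its MI-E UMIs lay in 2 cells. No paired analysis was possible because each group has 1 library. Depth limits the low genes: 633 higher and 250 lower calls held 587 and 205 whose counting interval left out 1.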
